A study of Homo sapiens with 18 samples.

Results

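The death receptor genes described here encode the TRAIL ligand (TNFSF10), its death receptors TNFRSF10A (DR4) and TNFRSF10B (DR5), its decoy receptors TNFRSF10C and TNFRSF10D, the receptor FAS, the adaptor FADD, the initiator caspase CASP8 and the caspase inhibitor CFLAR (c-FLIP). They are 9 of the 26249 genes in the files, and all 9 were found by symbol. TNFRSF10D was chosen by its rise in treated AMO1 cells, so its values in those comparisons are given as a description with no test. The other members are its receptor family, the ligand, and genes that act downstream of the death receptors.

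TRAIL binds DR4 and DR5 on the cell surface, and FAS ligand binds FAS. The occupied receptors recruit FADD, which brings caspase-8 molecules together so that they activate one another and start apoptosis. CFLAR resembles caspase-8 and competes with it at FADD. The decoy receptors bind TRAIL without passing on the full death signal: TNFRSF10C lacks an intracellular domain and TNFRSF10D has a truncated death domain. Myeloma is a cancer of plasma cells, and TRAIL receptors have long been studied in it as routes to apoptosis.

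The study measured messenger RNA by 3′ sequencing (QuantSeq) in XG1 and AMO1, which the labels give as multiple myeloma cell lines. Cells stood for 24 h in the solvent DMSO or in 100 nM or 1000 nM of YKL-5-124, an inhibitor of CDK7, a kinase of the general transcription machinery and of the cell cycle. Each of the 6 groups had 3 replicates, which makes 18 libraries. The labels name no genetic change in either line. They number the replicates without stating that cultures were separate, and p-values then measure only the spread between these samples, which may be technical.

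The values are FPKM, fragments scaled by gene length and by sequencing depth. Within each library the 92 added spike-in RNAs summed to 166717 to 187657 FPKM, while the genes summed to 431965 to 1553906. The deposited scale therefore holds the spike-ins nearly level (a rescaling inferred from the values), and a fall on it is a fall against them. The lowest gene total was that of AMO1 at 1000 nM, replicate 2. In bulk RNA, fewer cells and less RNA per cell cannot be told apart. On this scale the median of all tested genes fell in AMO1 by 0.77 on the log2 scale at 1000 nM and by 0.35 at 100 nM. It fell by 0.15 at each dose in the libraries labelled XG1. A second, relative scale divides each library by its median-ratio size factor, so that changes are read against the typical gene. A gene was tested where at least 3 libraries of a fit reached 1 FPKM, and it was called at an adjusted p under 0.05 (limma, Benjamini-Hochberg over all tested genes). Fold changes are of log2(FPKM + 1), which understates the change of low genes.

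The libraries labelled XG1 went against their label. The summed level of 10 plasma cell markers was 64.5 to 145 FPKM in them and 5256 to 10714 FPKM in AMO1. Of these markers, 5 of 10 reached a mean of 1 FPKM in the DMSO libraries labelled XG1 and 10 of 10 in those of AMO1. The summed level of 12 erythroid genes was 3053 to 5237 FPKM in the libraries labelled XG1, where 12 of 12 reached 1 FPKM in DMSO, and 30.3 to 124 FPKM in AMO1, where 3 of 12 did. Summed levels of 6 myeloid markers were 72.5 to 147 FPKM in the libraries labelled XG1 and 0.484 to 1.41 FPKM in AMO1. Only 3 of these 6 (ITGAM, LYZ and CD33) reached a mean of 1 FPKM in the DMSO libraries labelled XG1, and 0 of 6 in those of AMO1. The plasma cell factor IRF4 was at 0.171 to 0.767 FPKM in the libraries labelled XG1 and 17.9 to 84.0 FPKM in AMO1, and the erythroid factor GATA1 at 23.6 to 51.1 and 0.0634 to 0.0994 FPKM. Not every marker followed this split. HBE1, an embryonic globin gene, was higher in AMO1 in DMSO (106 against 67.2 FPKM) and made up most of its erythroid sum. Over all doses EPOR (2.87 to 6.76 FPKM in the libraries labelled XG1, 0.628 to 3.31 FPKM in AMO1) and the plasma cell gene XBP1 (42.1 to 88.4 and 65.7 to 229.6 FPKM) overlapped between the lines. The summed levels did not overlap, and their part in any difference between the lines was not tested.

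Promoter sequences are shown for 3 members: the ligand, which was higher in the libraries labelled XG1, and FADD and CFLAR, which fell in AMO1. Each runs from 250 bases before to 50 after the annotated start (RefSeq, GRCh38.p14), and for CFLAR it is the most upstream of 4 starts. The promoter set used held no sequence for TNFRSF10A, TNFRSF10B, TNFRSF10C or TNFRSF10D. The files were made on hg19, and no value was read by coordinate. TNFSF10 stands at chr3:172523381-172523680 on the minus strand, FADD at chr11:70203046-70203345 on the plus strand and CFLAR at chr2:201118466-201118765 on the plus strand. Capitals mark motif matches on either strand.
TNFSF10: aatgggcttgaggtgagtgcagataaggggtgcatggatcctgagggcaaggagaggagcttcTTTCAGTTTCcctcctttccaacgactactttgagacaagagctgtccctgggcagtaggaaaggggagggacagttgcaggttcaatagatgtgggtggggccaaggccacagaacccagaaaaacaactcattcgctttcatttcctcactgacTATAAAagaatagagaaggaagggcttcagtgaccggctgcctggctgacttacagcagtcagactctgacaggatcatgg
FADD: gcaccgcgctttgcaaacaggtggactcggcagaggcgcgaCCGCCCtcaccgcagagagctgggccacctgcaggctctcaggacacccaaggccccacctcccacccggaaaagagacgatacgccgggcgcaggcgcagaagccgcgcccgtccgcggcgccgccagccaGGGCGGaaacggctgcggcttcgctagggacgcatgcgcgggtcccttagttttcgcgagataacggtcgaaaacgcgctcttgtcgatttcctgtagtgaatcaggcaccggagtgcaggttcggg
CFLAR: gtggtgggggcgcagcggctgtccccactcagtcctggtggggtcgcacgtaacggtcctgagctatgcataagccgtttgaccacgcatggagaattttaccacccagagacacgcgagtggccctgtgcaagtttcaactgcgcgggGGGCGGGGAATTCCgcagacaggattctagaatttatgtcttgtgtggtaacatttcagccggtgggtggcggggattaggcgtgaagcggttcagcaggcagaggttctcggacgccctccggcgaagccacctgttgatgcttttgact

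Searched on both strands were the TATA box (TATAAA), the GC box (GGGCGG), the E box (CACGTG), the CRE half-site (TGACG), the CCAAT box (CCAAT), the E2F core (TTTCGCGC), the AP-1 site (TGACTCA or TGAGTCA), the NF-kB site, and the ISRE taken as TTTC, any 2 bases and TTTC. In TNFSF10 the capitals are an ISRE that begins 187 bases before the start and a TATA box 31 bases before it. In FADD they are 2 GC boxes, 209 and 77 bases before the start. In CFLAR a GC box 101 bases before the start overlaps an NF-kB site 97 bases before it. Of 35116 promoters of the same length, 11.5% hold the TATA box, 45% the GC box, 7.26% the E box, 24.6% the CRE half-site, 34.6% the CCAAT box and 0.515% the E2F core. The AP-1 site is in 4.95%, the NF-kB site in 5.91% and the ISRE in 3.57%.

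The 3 windows differ in composition. FADD is 66.7% G or C with 36 CpG dinucleotides, CFLAR 58.7% with 21, and TNFSF10 51% with 3, beside medians of 58.7% and 14 over all promoters. The most upstream FAS window holds a GC box, 18 CpG and 63% G or C. The most upstream CASP8 window holds a GC box and an ISRE, 6 CpG and 46.3% G or C. A match is a description of the letters and not a measured binding site.

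**Figure D1:**
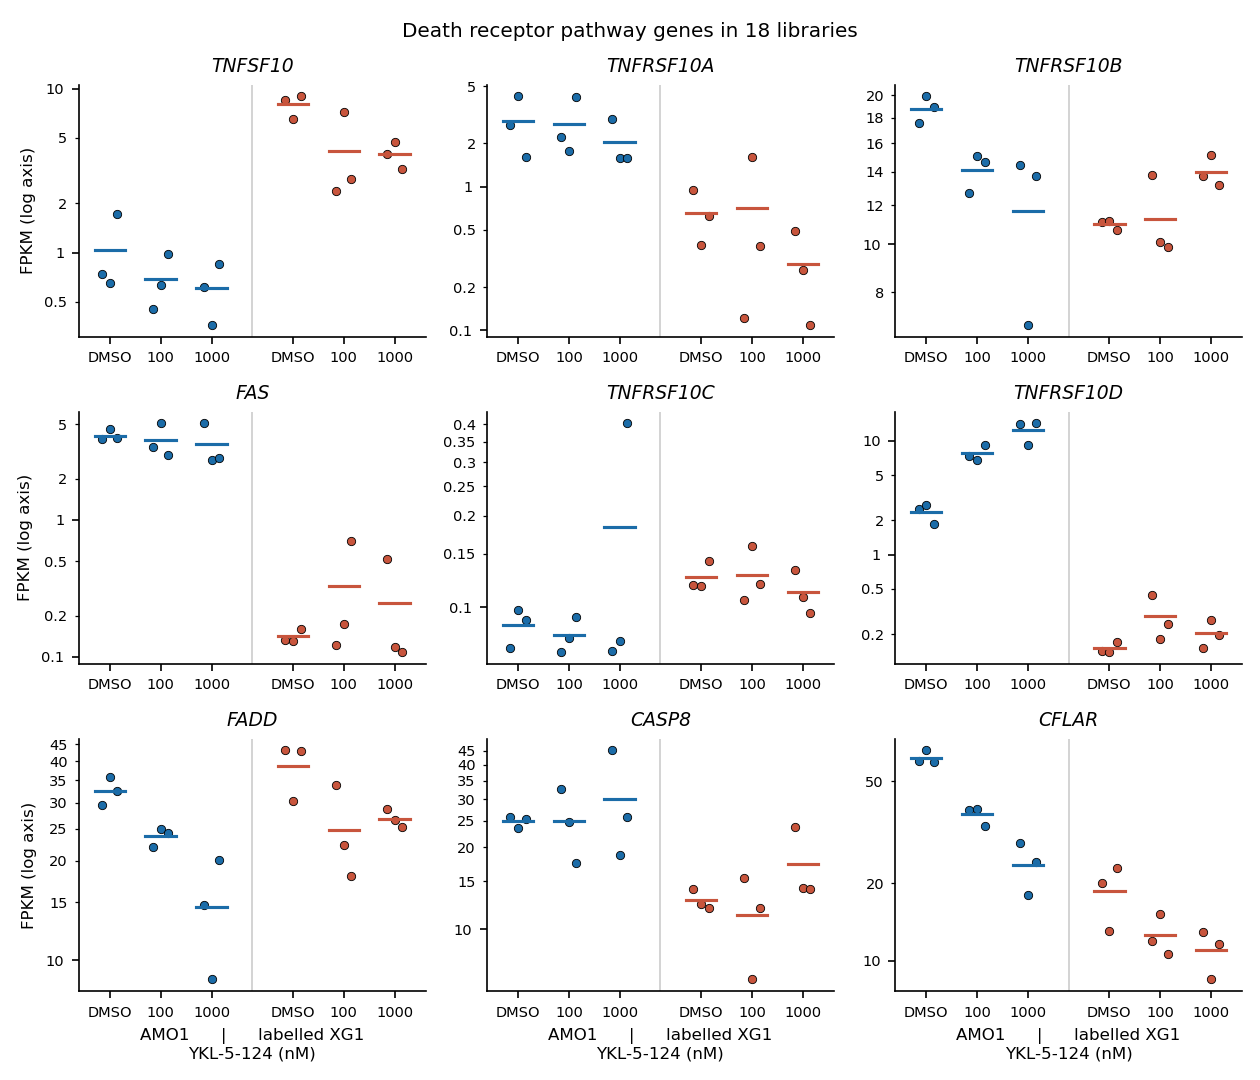
FPKM (log axis, a separate range for each panel) of the 9 members in each of 18 libraries, with AMO1 in blue and libraries labelled XG1 in red; points are libraries and bars are means of 3. TNFRSF10D climbs with dose in AMO1 from 2.38 to 12.5 FPKM while CFLAR falls there from 61.7 to 23.6 FPKM.

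TNFRSF10D, the decoy with a truncated death domain, was low in untreated AMO1 and higher at each dose. It stood at 2.53, 2.76 and 1.84 FPKM in DMSO, at 7.42, 6.75 and 9.16 FPKM at 100 nM and at 13.98, 9.24 and 14.4 FPKM at 1000 nM. The 3 groups did not overlap, and the lowest value at 1000 nM was in the library with the lowest gene total. Group means were 2.38 ± 0.477, 7.78 ± 1.24 and 12.5 ± 2.85 FPKM (SD, n = 3), 3.27-fold and 5.27-fold above DMSO. On the log2 scale the differences from DMSO were 1.38 and 1.99 (SE 0.213 each), and between the doses 0.61. Relative to the median gene they were 1.66, 2.77 and 1.11. The gene was at 0.138 to 0.443 FPKM in the libraries labelled XG1, where the floor at which most undetected genes stand was 0.0954 to 0.158. It failed the filter there and was not tested.

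TNFRSF10C, the decoy that lacks an intracellular domain, never reached 1 FPKM. Its values ran from 0.0712 to 0.403 FPKM, and 17 of 18 libraries were within 10% of their floor value. The exception was AMO1 at 1000 nM, replicate 3. LOC254896, which overlaps TNFRSF10C in RefSeq, was at 0.0949 to 1.39 FPKM.

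TNFRSF10B (DR5), the only death receptor among the members to reach 1 FPKM in all 18 libraries, was lower, not higher, in treated AMO1. It was at 17.6, 19.9 and 18.9 FPKM in DMSO, at 12.7, 15.1 and 14.7 FPKM at 100 nM and at 14.4, 6.87 and 13.7 FPKM at 1000 nM. All 3 DMSO libraries lay above all 6 treated ones. At 1000 nM it fell by 0.70 on the log2 scale (SE 0.242, adjusted p = 0.0191). Without replicate 2 at 1000 nM, the lowest library, it fell by 0.39 (adjusted p = 0.0195). Without DMSO replicate 2 it was no longer called (adjusted p = 0.0575), nor with no expression filter (adjusted p = 0.0698). Read against the median gene, the sign turned, to a difference of 0.20 that was not called (adjusted p = 0.198). At 100 nM the difference was -0.39 (adjusted p = 0.234). RHOBTB2, which overlaps TNFRSF10B in RefSeq, was at 3.98 to 8.51 FPKM in AMO1.

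In the libraries labelled XG1, TNFRSF10B was at 11.1, 11.2 and 10.7 FPKM in DMSO, at 13.8, 10.1 and 9.88 FPKM at 100 nM and at 13.8, 15.1 and 13.2 FPKM at 1000 nM. The 1000 nM libraries all lay above the DMSO ones. The difference was 0.32 (SE 0.174, adjusted p = 0.237) on the deposited scale and was called on the relative scale (0.49, adjusted p = 0.0492).

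The ratio of TNFRSF10D to TNFRSF10B within a library does not depend on the scaling. In AMO1 it was 0.144, 0.139 and 0.0975 in DMSO, 0.584, 0.448 and 0.624 at 100 nM and 0.967, 1.35 and 1.05 at 1000 nM. The 3 groups did not overlap. Because one of the genes was chosen for its rise, the ratio carries no test. FPKM of 3′ libraries divides by a length that the reads do not sample, so the ratio can be followed between libraries but says nothing of which transcript is more abundant. It was 0.0109 to 0.0321 in the libraries labelled XG1.

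TNFRSF10A (DR4) was low and scattered. In AMO1 it was at 2.69, 4.27 and 1.60 FPKM in DMSO, at 2.21, 1.77 and 4.18 FPKM at 100 nM and at 2.96, 1.58 and 1.59 FPKM at 1000 nM, so that all groups overlapped. Its differences from DMSO were -0.04 at 100 nM (adjusted p = 0.92) and -0.31 at 1000 nM (SE 0.289, adjusted p = 0.345). The 95% interval at 1000 nM ran from -0.93 to 0.31. It was at 0.109 to 1.61 FPKM in the libraries labelled XG1 and failed the filter.

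FAS, the receptor for FAS ligand, was expressed in AMO1 at 3.86, 4.58 and 3.93 FPKM in DMSO, at 3.39, 5.08 and 2.98 FPKM at 100 nM and at 5.06, 2.75 and 2.84 FPKM at 1000 nM. The groups overlapped, and the difference at 1000 nM was -0.21 (SE 0.227, adjusted p = 0.432). It was 0.56 higher relative to the median gene, which was called (adjusted p = 0.0456). ACTA2, which overlaps FAS in RefSeq, moved in the same libraries, from 0.0868, 0.571 and 1.27 FPKM in DMSO to 3.80, 4.21 and 4.13 at 100 nM and 2.34, 5.30 and 4.42 at 1000 nM. The sources used here do not say whether counting used strand, and the part of ACTA2 reads in the FAS values was not tested. FAS was at 0.108 to 0.696 FPKM in the libraries labelled XG1, with 2 of 18 libraries within 10% of the floor. Its ligand FASLG was at 0.0710 to 0.235 FPKM and never reached 1 FPKM.

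TNFSF10, the TRAIL ligand, had the opposite distribution between the lines. In the libraries labelled XG1 it was at 8.54, 6.52 and 9.01 FPKM in DMSO, at 2.38, 7.23 and 2.81 FPKM at 100 nM and at 4.01, 4.72 and 3.25 FPKM at 1000 nM. The 1000 nM libraries all lay below the DMSO ones, while replicate 2 at 100 nM lay among them. The means were 8.03 ± 1.32, 4.14 ± 2.69 and 3.995 ± 0.734 FPKM (SD, n = 3). The differences of -0.85 at 1000 nM (SE 0.316, adjusted p = 0.0883) and -0.92 at 100 nM (adjusted p = 0.079) were not called. Without replicate 2 at 100 nM that difference was -1.32 (adjusted p = 0.0105). In AMO1 the gene was at 0.361 to 1.72 FPKM and failed the filter.

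Of the signalling genes inside the cell, FADD and CFLAR fell in AMO1, while CASP8 was not called on the deposited scale. FADD, the adaptor, was at 29.4, 35.9 and 32.5 FPKM in DMSO, at 22.0, 24.9 and 24.2 FPKM at 100 nM and at 14.7, 8.75 and 20.1 FPKM at 1000 nM. The 3 groups did not overlap. At 1000 nM it fell by 1.18 (SE 0.249, adjusted p = 0.000899) and by 0.88 without replicate 2 (adjusted p = 0.000613). The difference relative to the median gene was -0.26 and was not called (adjusted p = 0.134). At 100 nM the difference was -0.44 (adjusted p = 0.189).

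CFLAR, the inhibitor of caspase-8 activation, was at 60.0, 65.9 and 59.2 FPKM in DMSO, at 38.7, 39.0 and 33.6 FPKM at 100 nM and at 28.6, 17.96 and 24.3 FPKM at 1000 nM. The 3 groups did not overlap. It fell by 1.37 at 1000 nM (SE 0.205, adjusted p = 6.41e-05) and by 0.72 at 100 nM (SE 0.205, adjusted p = 0.0167). It also fell relative to the median gene, by 0.43 at 1000 nM (adjusted p = 0.00746), and the -0.29 at 100 nM was not called (adjusted p = 0.0573). CFLAR was no longer called at 100 nM when DMSO replicate 1 (adjusted p = 0.0506) or 2 (adjusted p = 0.0755) was left out, or 100 nM replicate 1 (adjusted p = 0.051) or 3 (adjusted p = 0.0727). CFLAR-AS1, an overlapping antisense gene, was at 0.0783 to 0.491 FPKM over all libraries.

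CASP8, the initiator caspase, was at 25.8, 23.4 and 25.4 FPKM in DMSO, at 32.6, 24.6 and 17.4 FPKM at 100 nM and at 45.3, 18.7 and 25.8 FPKM at 1000 nM. The treated libraries lay on either side of the DMSO ones. The difference at 1000 nM was 0.17 (SE 0.290, adjusted p = 0.621), with a 95% interval from -0.46 to 0.79. Without replicate 1 at 1000 nM, the highest library, it was -0.17. CASP8 was 1.10 higher at 1000 nM relative to the median gene, and called (adjusted p = 0.00671).

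**Figure D2:**
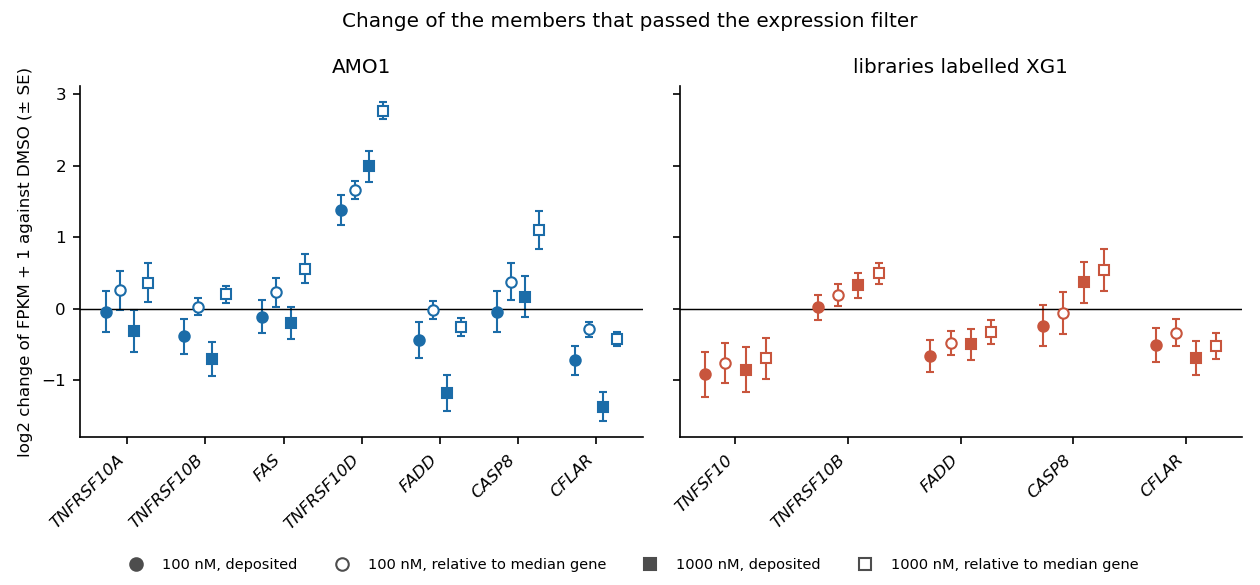
Log2 change of FPKM + 1 against DMSO (± SE) for members that passed the filter, in AMO1 (left) and libraries labelled XG1 (right); circles are 100 nM, squares 1000 nM, filled symbols the deposited scale and open symbols the scale relative to the median gene. In AMO1 at 1000 nM, CFLAR lies below 0 on each scale (-1.37 and -0.43), and TNFRSF10B turns from -0.70 to 0.20.

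The ratio of CFLAR to CASP8 in a library does not depend on the scaling either. In AMO1 it was 2.33, 2.81 and 2.33 in DMSO, 1.19, 1.58 and 1.93 at 100 nM and 0.633, 0.960 and 0.940 at 1000 nM, with no overlap between the groups. In the libraries labelled XG1 it was 1.42, 1.05 and 1.91 in DMSO, 0.777, 2.31 and 0.889 at 100 nM and 0.544, 0.596 and 0.827 at 1000 nM. There the 1000 nM libraries lay below the DMSO ones, and the 100 nM libraries spanned them. The ratio of CFLAR to FADD was 1.90 ± 0.122 in AMO1 in DMSO, 1.57 ± 0.187 at 100 nM and 1.73 ± 0.461 at 1000 nM (SD, n = 3).

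**Figure D3:**
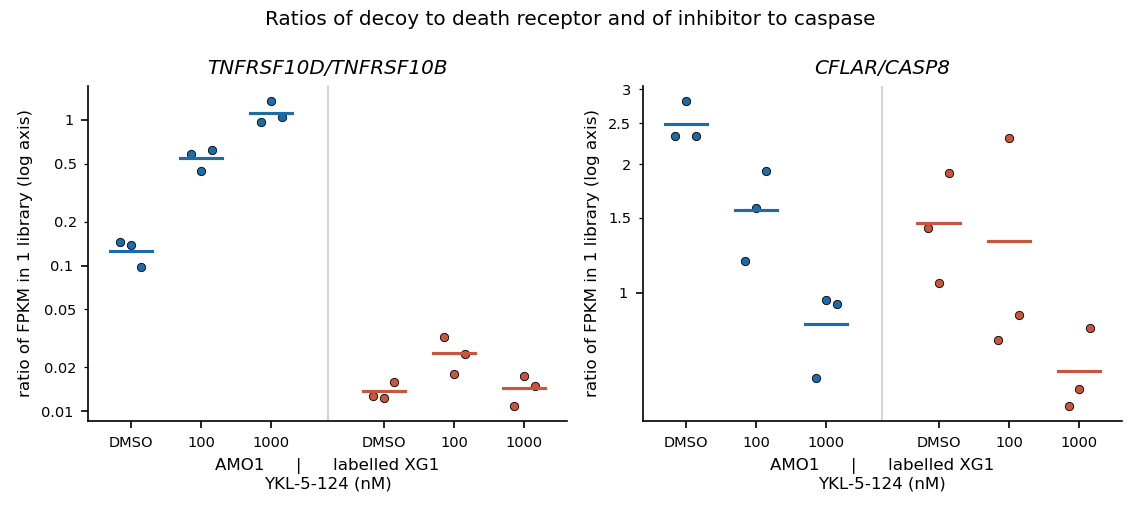
Ratio of FPKM in each library (log axis) for TNFRSF10D to TNFRSF10B (left) and CFLAR to CASP8 (right), by line and dose; points are libraries and bars are means of 3. In AMO1 the first ratio goes from 0.127 in DMSO to 1.12 at 1000 nM, and the second from 2.49 to 0.844.

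Of the 9 members, 7 passed the filter in AMO1, and 6 were tested beside TNFRSF10D. At 1000 nM, 3 of 6 were lower (TNFRSF10B, FADD and CFLAR) and none higher, where 65.7% of 10503 tested genes were lower and 2.51% higher. The median change of the 6 was -0.51, beside -0.77 over all genes. Against the median gene 2 of 6 were higher (FAS and CASP8) and 1 lower (CFLAR), where 23.5% of all genes were higher and 24.5% lower. At 100 nM 1 of 6 was lower (CFLAR), where 29.5% of all genes were. Both doses were compared with the same DMSO libraries. Of relative values limma called 0 of 6 at 100 nM (1 at an unadjusted p under 0.05), where 31% of all genes changed in either direction. An unadjusted p under 0.05 was reached there by 4429 of 10503 tested genes.

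Between the doses in AMO1, 2 of 6 members were lower at 1000 nM than at 100 nM, where 23.4% of all genes were. FADD fell by 0.74 (SE 0.249, adjusted p = 0.046) and CFLAR by 0.65 (SE 0.205, adjusted p = 0.0378). Neither was called with no expression filter (adjusted p = 0.149 for FADD and 0.0818 for CFLAR) or when any 1 of the 3 libraries at 100 nM was left out, and FADD was not without 1000 nM replicate 2 (-0.44, adjusted p = 0.0651). With relative values limma called 0 of 6 (1 at an unadjusted p under 0.05), where 5.85% of all genes were called. An unadjusted p under 0.05 was reached there by 2370 of 10503 tested genes.

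In the libraries labelled XG1, 5 members passed the filter and limma called 0 of 5 at 1000 nM (3 at an unadjusted p under 0.05). There 3.69% of 11810 tested genes were called higher and 13.2% lower, and 3668 had an unadjusted p under 0.05. FADD was at 43.2, 30.3 and 42.9 FPKM in DMSO, at 33.9, 22.3 and 17.97 FPKM at 100 nM and at 28.6, 26.6 and 25.2 FPKM at 1000 nM. Its differences from DMSO were -0.50 at 1000 nM (adjusted p = 0.15) and -0.66 at 100 nM (adjusted p = 0.0751). Without replicate 1 at 100 nM the latter was -0.90 (adjusted p = 0.0124).

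CFLAR was at 20.0, 13.0 and 22.9 FPKM in DMSO, at 11.9, 15.1 and 10.6 FPKM at 100 nM and at 12.9, 8.44 and 11.6 FPKM at 1000 nM in these libraries. All 1000 nM libraries lay below the DMSO ones, by 0.69 on the log2 scale on average (SE 0.238), which was not called (adjusted p = 0.0683). Without DMSO replicate 2, the lowest of its group, the difference was -0.92 (adjusted p = 0.0298). At 100 nM it was -0.51 (adjusted p = 0.179).

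CASP8 was at 14.1, 12.3 and 12.0 FPKM in DMSO, at 15.3, 6.54 and 11.9 FPKM at 100 nM and at 23.8, 14.2 and 14.04 FPKM at 1000 nM in the libraries labelled XG1. The groups overlapped, and the difference at 1000 nM was 0.37 (adjusted p = 0.422). On the relative scale 1 of 5 members was higher at 1000 nM (TNFRSF10B), where 9.41% of all genes were. At 100 nM limma called 0 of 5 (2 at an unadjusted p under 0.05), where 12.5% of all genes changed. Between the doses it called 0 of 5 (0 at an unadjusted p under 0.05), where 0.39% did. Of 11810 tested genes, 3441 at 100 nM and 1255 between the doses had an unadjusted p under 0.05.

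In DMSO, 8 members passed the filter of the 18-library fit, but TNFSF10, TNFRSF10A, FAS and TNFRSF10D passed through 1 line only, the line where they are high, and so had to differ. Their values are given with no test. TNFSF10 averaged 8.03 FPKM in the libraries labelled XG1 and 1.04 FPKM in AMO1. TNFRSF10A averaged 0.655 and 2.85 FPKM, FAS 0.141 and 4.12 FPKM, and TNFRSF10D 0.15 and 2.38 FPKM.

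The other 4 members passed in each line, and 3 of them were lower in the libraries labelled XG1, where 45% of 12792 genes were higher and 19.8% lower. The same 3 were lower relative to the median gene, where 32.3% of all genes were higher and 33.5% lower. The shares over all genes on both scales also count genes that passed through 1 line only. They are thus not of a set like these members. TNFRSF10B was lower by 0.72 on the log2 scale (SE 0.207, adjusted p = 0.00561), CFLAR by 1.71 (SE 0.213, adjusted p = 2.1e-06) and CASP8 by 0.91 (SE 0.313, adjusted p = 0.0174). FADD differed by 0.23, which was not called (adjusted p = 0.427), and by -0.28 on the relative scale. Line and cell identity cannot be told apart here, because the summed plasma cell and erythroid markers separated the same libraries.

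The response to 1000 nM differed between the lines in 1 of 7 members tested, where 32.8% of all genes were higher in this difference. Its median over all tested genes was 0.55 on the deposited scale. At either dose the 7 include TNFSF10, TNFRSF10A and FAS, which passed the filter through 1 line only. In the line where they were low, log2(FPKM + 1) understates their change, so no call for them says little about the lines. The member called was TNFRSF10B, whose change in the libraries labelled XG1 exceeded that in AMO1 by 1.03 (SE 0.293, adjusted p = 0.0131). Without AMO1 replicate 2 at 1000 nM it was 0.71 (adjusted p = 0.0129). On the relative scale it was 0.31 (adjusted p = 0.313), and limma called 0 of 7 members (0 at an unadjusted p under 0.05), where 16.9% of all genes were called. An unadjusted p under 0.05 was reached on that scale by 3806 of 12792 tested genes. The difference for CFLAR was 0.68 (adjusted p = 0.0908) and for FADD 0.68 (adjusted p = 0.143). Leaving out replicate 3 in DMSO (adjusted p = 0.0463) or replicate 2 at 1000 nM (adjusted p = 0.0485) of the libraries labelled XG1, or AMO1 replicate 1 at 1000 nM (adjusted p = 0.0468), made the difference for CFLAR a call. Leaving out AMO1 replicate 3 at 1000 nM did so for FADD (adjusted p = 0.035). For 100 nM limma called 0 of 7 (0 at an unadjusted p under 0.05), where 6.23% of all genes were called. An unadjusted p under 0.05 was reached there by 2567 of 12792 tested genes. The difference for TNFRSF10D was -1.92 at 1000 nM and -1.22 at 100 nM, given with no test.

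The order of the 6 groups by mean level was clear for some members only. TNFRSF10D ran from AMO1 at 1000 nM through 100 nM to DMSO and then to the libraries labelled XG1, with overlap between neighbours only among the latter. CFLAR ran from AMO1 in DMSO down through 100 nM without overlap, and from AMO1 at 1000 nM (23.6 FPKM) onward each group overlapped the next. TNFRSF10B stood apart only in AMO1 in DMSO (18.8 FPKM), and its other 5 groups, from 14.2 to 11.0 FPKM, each overlapped the next. For CASP8 every group overlapped the next in order, from 29.9 to 11.3 FPKM.

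A list of 35 other genes of extrinsic apoptosis held further ligands, receptors, adaptors, caspases and inhibitors. In AMO1 at 1000 nM, 20 of 29 tested were lower and 0 higher, where 65.7% of all genes were lower and 2.51% higher. The median was -0.68 beside -0.77 over all genes. The relative scale gave 9 higher and 5 lower, where 23.5% and 24.5% of all genes were. The effector caspase CASP6 fell from 14.4 to 4.65 FPKM (-1.45, adjusted p = 1.44e-05). The receptor TNFRSF21 fell from 2.21 to 0.408 FPKM (-1.17, adjusted p = 0.000113). The adaptor TRAF2 fell from 11.6 to 4.72 FPKM (-1.16, adjusted p = 0.000181). These 3 were lower on the relative scale too, by 0.59, 0.70 and 0.32.

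In the libraries labelled XG1 at 1000 nM, 2 of 29 tested genes of this list were higher and 0 lower, where 3.69% of all genes were higher and 13.2% lower. The kinase RIPK1, which sits at the branch between survival and death signalling, rose from 9.67 to 19.9 FPKM (0.97, adjusted p = 0.00741). DEDD, a death effector domain protein, rose from 20.4 to 31.8 FPKM (0.61, adjusted p = 0.0478). In AMO1 RIPK1 was at 4.38 FPKM in DMSO and 5.45 FPKM at 1000 nM (0.25, adjusted p = 0.23), and at 6.55, 6.62 and 6.25 FPKM at 100 nM (0.48, adjusted p = 0.058). Relative to the median gene RIPK1 rose in AMO1 by 1.05 at 1000 nM (adjusted p = 3.52e-05), beside 1.14 in the libraries labelled XG1 (adjusted p = 0.00136). Relative values put 6 of 29 higher and 0 lower in the libraries labelled XG1, where 9.41% of all genes were higher.

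**Figure D4:**
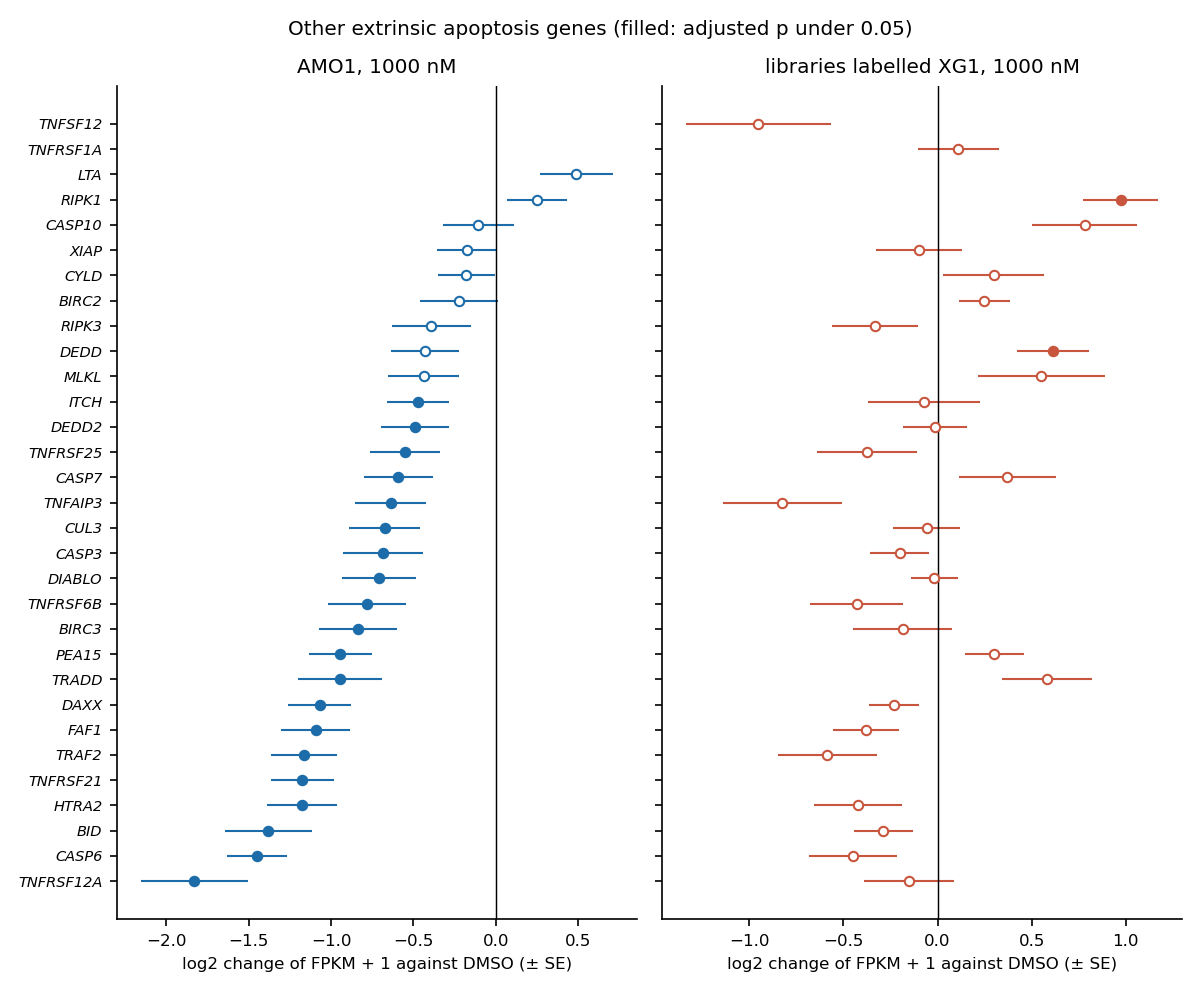
Log2 change of FPKM + 1 at 1000 nM against DMSO (± SE) for the other extrinsic apoptosis genes that passed the filter, on the deposited scale, in AMO1 (left) and libraries labelled XG1 (right); filled points were called. In AMO1 20 of 29 were called lower, and in the libraries labelled XG1 only RIPK1 and DEDD were called.

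In DMSO, 12 of 31 tested genes of the list were higher in the libraries labelled XG1 and 9 lower, where 45% and 19.8% of all genes were. The relative scale gave 7 and 15, where 32.3% and 33.5% of all genes were. These counts include genes that passed the filter through 1 line only, such as TNFRSF1A. The inhibitor BIRC3 (cIAP2) was at 1.01 FPKM in them and 27.7 FPKM in AMO1 (-3.82, adjusted p = 1.13e-10), while its paralogue BIRC2 (cIAP1) was at 75.7 and 21.2 FPKM (1.78, adjusted p = 3.35e-07). The death receptors TNFRSF1A (11.7 against 1.09 FPKM) and TNFRSF25 (22.2 against 2.57 FPKM) were higher, by 2.58 and 2.68. CASP10, the close relative of CASP8 that lies between it and CFLAR in the genome, was lower (4.54 against 18.5 FPKM, -1.81, adjusted p = 5.43e-06). The adaptor TRADD was lower by 1.57.

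A list of 11 transcription factors known to act on TRAIL receptor, FAS or CFLAR genes was also followed. In AMO1 at 1000 nM, 8 of 11 were lower and 0 higher, where 65.7% and 2.51% of all genes were. On the relative scale 4 were lower and 3 higher, where 24.5% and 23.5% of all genes were. ATF4, a factor of the stress response, fell from 617 to 117 FPKM (-2.42, adjusted p = 5.85e-07). MYC fell from 82.2 to 16.2 FPKM (-2.46, adjusted p = 4.01e-05). DDIT3 (CHOP), a known activator of TNFRSF10B, fell from 94.1 to 38.5 FPKM (-1.29, adjusted p = 0.000113). All 3 were lower on the relative scale too.

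In the libraries labelled XG1 at 1000 nM, 3 of 10 tested factors were lower and 0 higher, where 13.2% and 3.69% of all genes were. ATF4 fell from 174 to 79.1 FPKM (-1.13, adjusted p = 0.00149), DDIT3 from 49.1 to 25.1 FPKM (-0.95, adjusted p = 0.00393) and YY1 from 50.0 to 33.0 FPKM (-0.58, adjusted p = 0.0425). The relative scale gave 2 lower and 2 higher, where 10.2% and 9.41% of all genes were. In DMSO, 6 of 11 factors were lower in the libraries labelled XG1 than in AMO1 and 2 higher, where 19.8% and 45% of all genes were. ATF4 and DDIT3 were among the lower ones, by 1.82 and 0.93. The higher ones were YY1, by 0.69, and SP1, by 0.61, neither of which was called on the relative scale. That scale gave 7 lower and 0 higher, where 33.5% and 32.3% of all genes were.

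Among 12792 genes tested over the 18 libraries, those whose pattern was most like a member's were named by Pearson's r of log2(FPKM + 1), as a description. The 18 points fall in 2 lines and share libraries, so a difference between the lines can raise r. Its part in each r was not tested. For TNFRSF10D the most alike genes were PXDN (0.99), P2RX1 (0.983) and ENC1 (0.979). For CFLAR they were DLAT (0.982), RANGRF (0.981) and GOLPH3L (0.978), and for FAS TMC8 (0.988), SNAR-I (0.982) and PVRL1 (0.98). FADD was most like LCP1 (0.961) and TCP1 (0.948), and TNFSF10 like CSMD1 (0.972), SLC1A3 (0.97) and PAX9 (0.97). TNFRSF10A was most like SEMA3G (0.941), RORA (0.939) and P2RX7 (0.928). TNFRSF10B was most like ORMDL1 (0.914), ARHGEF2 (0.906) and ZNF740 (0.902). CASP8 had the weakest matches, TSC22D4 (0.898) and LGMN (0.88).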

How the data were processed

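Messenger RNA was measured in 18 libraries, and groups were taken from the labels. HISAT2, Cuffnorm and the build hg19 are named, without versions, per the submitters' processing notes. The authors deposited FPKM for 26341 entries a library. Read depth is unknown, so precision comes from replicates: Spearman correlations within groups were 0.934 to 0.974 over genes tested in the 18-library fit and 0.817 to 0.973 over all genes, many of them at the floor.

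Values were tested as log2(FPKM + 1) with limma 3.58.1 (R 4.3.3, mean-dependent prior variance, two-sided), for genes that reached 1 FPKM in 3 or more of the libraries fitted. Each line's 9 libraries were fitted together, and all 18 for comparisons between lines. The method was checked on simulated data. Alternatives were the relative scale, a pseudocount of 0.1, no filter, no prior trend, a replicate block, 1 fit of all 18 libraries and leaving out each replicate.

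The members and lists were chosen with earlier results of these data known. Named were every member, the 3 genes of each list with the smallest adjusted p in each direction in AMO1 at 1000 nM, XG1 at 1000 nM and between lines in DMSO, and the 3 genes most like each member; a few genes the rule selects are not reported here. Markers of B, T and NK, and stromal cells were also summed: 80.7 to 168, 1.14 to 3.17 and 0.931 to 2.12 FPKM in AMO1, and 4.59 to 8.44, 31.7 to 59.1 and 0.753 to 2.24 FPKM in libraries labelled XG1. By the mean of each line's libraries, 1 of 6 B cell markers reached 1 FPKM in each line. Of 6 T and NK cell markers 0 did in AMO1 and 1 in libraries labelled XG1, and of 6 stromal markers 0 did in either line.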

Additional observations from a re-analysis of the deposited data

Results flagged for a closer look

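The response of TNFRSF10B to 1000 nM differed between the lines by a test of the difference itself: the log2 change in the libraries labelled XG1 minus that in AMO1 was 1.03 (limma, adjusted p = 0.0131). Over all 12792 tested genes the median of this difference was 0.55, and 32.8% were called higher. Relative to the median gene the difference for TNFRSF10B was 0.31 (adjusted p = 0.313). With 3 samples a group, single samples were not tested as outliers.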

How the results depend on the processing

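XG1 stands here for the libraries labelled XG1. On the relative scale the sign turned for several members, given here as log2 differences. In AMO1 at 1000 nM against DMSO these were TNFRSF10A (0.36), TNFRSF10B (0.20) and FAS (0.56), at 100 nM TNFRSF10A (0.26), TNFRSF10B (0.025), FAS (0.23) and CASP8 (0.38), and between the doses TNFRSF10A (0.10), TNFRSF10B (0.18) and FAS (0.33). FADD between the lines in DMSO became -0.28. In the difference between the lines' responses, FAS (-0.47), FADD (-0.027), CASP8 (-0.55) and CFLAR (-0.047) turned at 1000 nM, and TNFRSF10A (-0.25), FAS (-0.044) and CFLAR (-0.030) at 100 nM. With a pseudocount of 0.1 TNFRSF10A at 100 nM turned to -0.29. Except for TNFRSF10B in AMO1 at 1000 nM, none of these was called on the deposited scale.

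Counts of members called changed as follows. On the relative scale they were 0 in AMO1 at 100 nM, 0 between the AMO1 doses, 1 in the libraries labelled XG1 at 1000 nM and 0 for the difference in response to 1000 nM. Between the AMO1 doses the count was 0 without the filter and 0 with the replicate block. With all 18 libraries in 1 fit it was 2 in XG1 at 1000 nM (TNFSF10 and CFLAR) and 1 at 100 nM (TNFSF10). Leaving out 1 replicate gave 0 to 1 in AMO1 at 100 nM, 0 to 2 between its doses, 0 to 1 in XG1 at either dose and 1 to 2 for the difference in response to 1000 nM. TNFRSF10B in AMO1 at 1000 nM was not called without the filter (adjusted p = 0.0698) or without DMSO replicate 2 (adjusted p = 0.0575).

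Leaving out 1 replicate also turned signs of differences that were not called. In AMO1 at 1000 nM CASP8 ran from -0.17 to 0.45. At 100 nM TNFRSF10A ran from -0.31 to 0.21, FAS from -0.29 to 0.014 and CASP8 from -0.25 to 0.18. Between the doses FAS ran from -0.32 to 0.087 and CASP8 from -0.13 to 0.49. In XG1 at 100 nM TNFRSF10B ran from -0.13 to 0.10 and CASP8 from -0.48 to 0.078, and between its doses TNFSF10 from -0.17 to 0.47 and FADD from -0.038 to 0.40. For the difference in response to 1000 nM TNFRSF10A ran from -0.30 to 0.21 and CASP8 from -0.076 to 0.54. To 100 nM TNFRSF10A ran from -0.35 to 0.27, CASP8 from -0.44 to 0.12 and CFLAR from -0.016 to 0.37.

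Counts over all genes moved by over 1.5 times in some settings. Without the filter they were 1944 in AMO1 at 100 nM (3386 with it), 521 between its doses (2482), 1153 and 674 in XG1 at 1000 and 100 nM (1994 and 1474), 9 between its doses (46) and 15163 between the lines in DMSO (8292). On the relative scale they were 614 between the AMO1 doses, 108 between the XG1 doses, and 2157 and 1220 for the differences in response to 1000 and 100 nM (4390 and 797). Between the XG1 doses they were 4 with no prior trend and 94 in 1 fit. Leaving out 1 replicate gave 1812 to 2613, 519 to 3437, 1047 to 1564, 571 to 1876 and 2 to 82 for these AMO1 and XG1 comparisons in order, and 430 to 1136 for the difference in response to 100 nM. The scaling also moved the split of higher and lower calls: 264 and 6900 became 2472 and 2569 in AMO1 at 1000 nM, and 287 and 3099 became 1473 and 1781 at 100 nM. Between the AMO1 doses 22 and 2460 became 175 and 439. In XG1 436 and 1558 became 1111 and 1208 at 1000 nM, and 293 and 1181 became 839 and 863 at 100 nM. Between the lines in DMSO 5754 and 2538 became 4137 and 4279, and for the differences in response 4198 and 192 became 1286 and 871 at 1000 nM and 687 and 110 became 803 and 417 at 100 nM.

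The labels' replicate numbers did not pair the samples: same-numbered samples' deviations from their group means correlated from -0.178 to 0.125 in AMO1 (1 of 9 over 0.1) and from -0.044 to 0.157 in XG1 (2 of 9), and a sample correlated best with its own number in 3 of 9 and 6 of 9. With the replicate block FADD (adjusted p = 0.0624) and CFLAR (adjusted p = 0.0778) were not called between the AMO1 doses, nor TNFRSF10B between the lines in DMSO (-0.67, adjusted p = 0.066). Counts over all genes were 1461 between the AMO1 doses and 513 for the difference in response to 100 nM. Except where the construction of a setting shows it (fewer samples, or more genes tested), the cause of these changes was not tested. Genes near the floor, such as TNFRSF10C, could not be followed.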
